A study of Mus musculus with 28 samples.

Results

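The response of hippocampal microglia to the 5xFAD transgenes was compared between mice treated with antibiotics (ABX) and germ-free (GF) mice. For each gene the 5xFAD effect in ABX mice (FAD_ABX against WT_ABX) was set against the 5xFAD effect in GF mice (FAD_GF against WT_GF), and the value reported is the difference of both effects on the log2 scale, ABX minus GF. The 4 groups hold 20 of the 28 mice of the series, namely 6 FAD_ABX, 5 WT_ABX, 5 FAD_GF and 4 WT_GF mice, each with 1 library of sorted CD11b+CD45low cells. The other 8 mice were colonized (specific pathogen free, SPF) and entered the fit as 2 further groups without being part of the comparison. The question behind the comparison is whether microglia that lack live gut bacteria from birth and microglia of colonized mice that lose most of them later respond alike to the transgenes.

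All mice were males on a C57BL/6J background and 16 weeks old. FAD mice carried the 5xFAD transgenes heterozygously, which encode mutated human amyloid precursor protein and presenilin under a neuron-specific Thy-1 promoter, and WT mice were their non-transgenic littermates. FAD_ABX and WT_ABX mice were raised colonized and received vancomycin, cefoxitin, gentamicin and metronidazol in the drinking water for the last 8 weeks. FAD_GF and WT_GF mice came from a germ-free facility in Bern and all others from Freiburg, so housing without germs and breeding site cannot be told apart. 1 GF mouse, FAD_GF_201, is 5xFAD by its title and genotype label and WT by its description, and it was used as FAD_GF.

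Library totals of the 20 mice ranged from 14441610 to 29977395 counts. The library descriptions have 2 forms. All 5 WT_ABX mice, all SPF mice and the mouse FAD_ABX_1151 are described by a mouse number, whereas all GF mice and the other 5 FAD_ABX mice are described by condition and genotype. The GF arm thus has 1 form, and in the ABX arm form and genotype cannot be told apart except through mouse FAD_ABX_1151. On the first 2 principal components of expression, that mouse lay nearer to FAD_SPF mice than to the other FAD_ABX mice, with values given below. The microglial markers Cx3cr1, P2ry12, Tmem119, Csf1r, Sall1, Fcrls and Aif1 were present in every group, with a summed level between 29807 and 43695 CPM (counts scaled to an equal library total) in the 20 mice. Mouse App, which may also collect reads of the related human transgene, was 170 to 213 CPM in WT_ABX, 189 to 269 CPM in FAD_ABX, 217 to 244 CPM in WT_GF and 214 to 280 CPM in FAD_GF mice, so that it overlapped between the genotypes in both arms.

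Microglia are the resident macrophages of the brain. Around amyloid plaques they switch on a set of genes for lipid handling, phagocytosis and lysosomal breakdown, with Apoe, Trem2 and Tyrobp at its centre, and reduce some of their homeostatic genes. Macrophages at the borders of the brain, in the meninges and around vessels, are a separate population that carries Mrc1, Cd163 and Lyve1, and in part major histocompatibility complex (MHC) class II genes, which present extracellular antigens to T cells.

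Most of the response did not differ detectably between ABX and GF mice. Of 15298 genes tested, 269 (1.76%) had a different 5xFAD effect, 140 (0.915%) higher in ABX and 129 (0.843%) lower in ABX (edgeR's quasi-likelihood test, Benjamini-Hochberg adjusted p under 0.05). The 5xFAD effect itself passed the same test for 2207 genes (14.4%) in ABX mice, of which 1445 rose (9.45%) and 762 fell (4.98%). In GF mice it passed for 2391 genes (15.6%), of which 1442 rose (9.43%) and 949 fell (6.2%). With library size as the only scaling, 209 were higher and 69 lower in ABX. The median difference over all tested genes was 0.01, or 0.06 with that scaling.

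The 140 genes with the higher effect in ABX mice had a median 5xFAD effect of 0.38 in ABX and -0.46 in GF mice. Their 5xFAD effect was called in GF mice alone for 64, in ABX mice alone for 55, in both for 16 and in neither for 5. The 129 genes with the lower effect in ABX mice had a median 5xFAD effect of -0.10 in ABX and 0.79 in GF mice, called in GF mice alone for 80, in ABX mice alone for 30, in both for 18 and in neither for 1. These medians describe genes that were selected on the difference of the same values. The number of calls depended on single mice. It ranged from 85 without mouse WT_GF_229 to 491 without mouse FAD_GF_201. It was also lower by over 1.5 times without mouse WT_GF_199 (118) or WT_GF_231 (119), mouse WT_ABX_909 (127), WT_ABX_910 (121) or WT_ABX_911 (104), mouse FAD_GF_181 (150), FAD_GF_184 (175) or FAD_GF_185 (108), and mouse FAD_ABX_1452 (148) or FAD_ABX_1460 (173). With only the 20 mice in the fit, 67 genes were called, and all of these were among the 269.

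**Figure D1:**
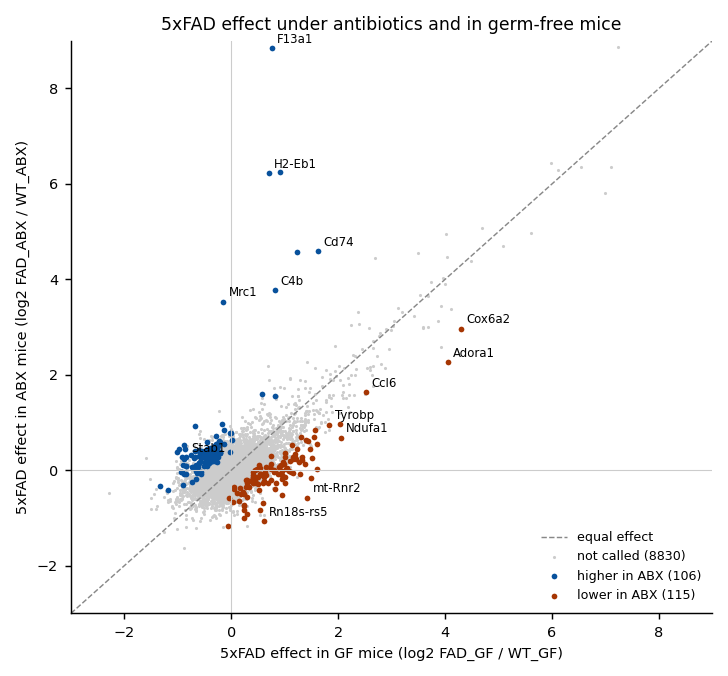
5xFAD effect in GF mice (horizontal axis) and in ABX mice (vertical axis), both log2, for genes averaging 3 log2 CPM or more, where the dashed line marks equal effects. Blue points are the 106 genes called higher in ABX and brown points the 115 called lower in ABX, and 2 genes lie outside the axes. F13a1, Mrc1, C4b and the MHC class II genes stand far above the line, while Adora1, Cox6a2, Ndufa1 and mt-Rnr2 lie below it.

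Of all gene lists examined, markers of border-associated macrophages had the highest median difference. Of 12 such markers, all of which were tested, 10 had a higher 5xFAD effect in ABX mice and 0 a lower one, beside 0.915% of all genes. In ABX mice 11 of the 12 rose with the transgenes, beside 9.45% of all genes. In GF mice 0 rose and Stab1 fell, where 9.43% of all genes rose and 6.2% fell. The median difference of the list was 7.13, or 6.96 with genes that lacked counts in WT_ABX mice set to their lowest possible value. The count was between 9 and 11 when any 1 mouse was left out.

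Mrc1, the mannose receptor that marks these macrophages, was 4.92, 3.31, 3.21, 5.16 and 5.17 CPM in the 5 WT_ABX mice. In the 6 FAD_ABX mice it ranged from 13.6 to 97 CPM with a median of 43.7. In the GF arm it was 18.4, 11.4, 11.6 and 8.89 CPM in WT and 16.1, 5.04, 2.86, 6.43 and 26.4 CPM in 5xFAD mice. The groups thus separated completely in the ABX arm and overlapped in the GF arm, and the effects differed by 3.69 ± 0.67 (SE, adjusted p = 0.00685). Mrc1 lies on chromosome 2 (GRCm38, 14229392 to 14332057).

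F13a1, a coagulation factor subunit made by tissue macrophages, had 0 counts in 4 WT_ABX mice and 0.264 CPM in the other, against 6.6 to 69.3 CPM in FAD_ABX mice with a median of 35.1. GF mice had 1.75, 17.7, 3.76 and 0.258 CPM as WT and 10.4, 1.5, 7.6, 2.25 and 27.5 CPM as 5xFAD, and the difference of effects was 8.09 ± 1.41 (adjusted p = 0.00685). The scavenger receptor Cd163 had no count in any WT_ABX mouse. It reached 5.98 to 40.3 CPM in FAD_ABX mice, at least 771-fold higher by a floor of 3 counts over the group, while WT_GF mice had 0.0895 to 10 CPM and FAD_GF mice 0.176 to 10.1 CPM. By the same floor the lectin Mgl2 was at least 591-fold, the hyaluronan receptor Lyve1 at least 407-fold and the lectin Cd209f at least 150-fold higher in FAD_ABX than in WT_ABX mice. For each of these 4 genes all 5 WT_ABX libraries were at 0 and all 6 FAD_ABX libraries were above 0, whereas WT_GF and FAD_GF mice overlapped.

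The chemokine Pf4 was 0 to 0.238 CPM in WT_ABX and 2.71 to 29.3 CPM in FAD_ABX mice, and its effects differed by 6.54 ± 1.11 (adjusted p = 0.00685). The carbonyl reductase Cbr2 was 0 to 0.362 CPM in WT_ABX and 1.35 to 12.5 CPM in FAD_ABX mice, with a difference of 6.17 ± 1.08 (adjusted p = 0.00685). For Ms4a7 a single count was found in WT_ABX mice, and its level in FAD_ABX mice was 1071 times as high (exact 95% interval of counting error 192 to 42324). Folr2 and Clec10a were the 2 markers without a call, at differences of 2.32 ± 1.28 and 3.29 ± 1.33 (adjusted p = 0.379 and 0.21). For all 11 markers other than Stab1 the WT_ABX mean was the lowest of the 4 groups and the FAD_ABX mean the highest.

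Stab1, another scavenger receptor of the list, behaved differently and is also a microglial gene of high level. It was 392 to 547 CPM in WT_ABX, 427 to 618 CPM in FAD_ABX, 599 to 743 CPM in WT_GF and 275 to 529 CPM in FAD_GF mice. Its effects differed by 1.11 ± 0.22 (adjusted p = 0.0112). It fell in GF mice by 0.84 on the log2 scale (adjusted p = 0.000445), and its effect in ABX mice was 0.27 (adjusted p = 0.242).

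The summed level of the other 11 markers was 3.7 to 5.86 CPM in WT_ABX and 36.5 to 308 CPM in FAD_ABX mice, against 11.6 to 45.9 CPM in WT_GF and 20.2 to 89.3 CPM in FAD_GF mice. Mouse FAD_ABX_1151, the FAD_ABX mouse described like the WT_ABX mice, had the lowest FAD_ABX value (36.5 CPM), which was above that of every WT_ABX mouse. The next FAD_ABX value was 113 CPM. In SPF mice, also described like WT_ABX mice, the sum was 3.38 to 8.43 CPM in WT and 18.4 to 31.8 CPM in 5xFAD mice. With Stab1 included the sum was 398 to 553 CPM in WT_ABX, 574 to 926.2 CPM in FAD_ABX, 644 to 782 CPM in WT_GF and 338 to 618 CPM in FAD_GF mice. In sorted bulk samples more cells of a type and more RNA per cell cannot be told apart. The part of sorting, of cell number or of anything that goes with the form of description in these values was not tested.

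**Figure D2:**
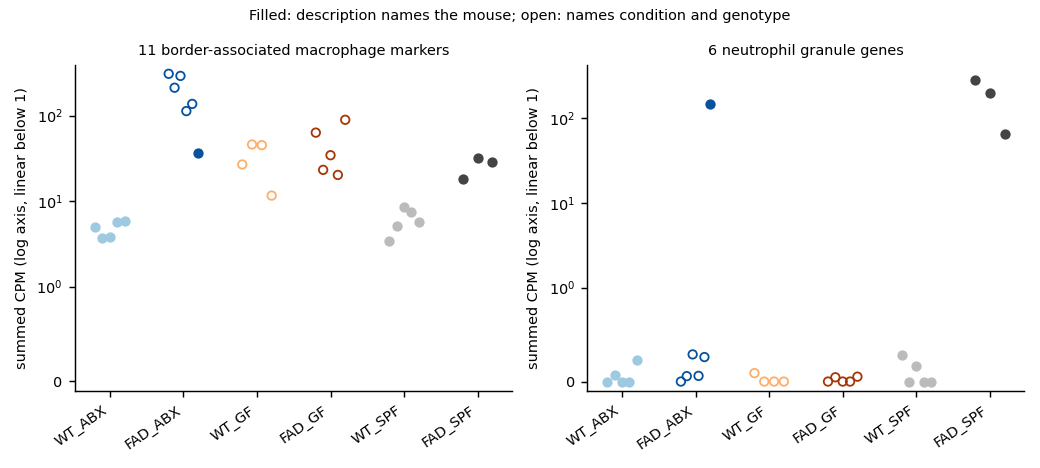
Summed CPM per mouse of 11 border-associated macrophage markers (Stab1 left out, left panel) and of 6 neutrophil granule genes (right panel) in all 6 groups, on an axis that is logarithmic above 1 and linear below. Filled points are mice described by number and open points mice described by condition and genotype. WT_ABX mice lie at 3.7 to 5.86 CPM and FAD_ABX mice at 36.5 to 308 CPM in the left panel, and mouse FAD_ABX_1151 is the only one of the 20 mice above 1 CPM in the right panel.

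Neutrophil genes showed another pattern, although antibodies against Ly6G and Ly6C were part of the exclusion gate. Of 20 neutrophil markers 13 were tested and 0 had a called difference, but with only the 20 mice in the fit 3 passed the filter on low counts, so that the others were tested on values near 0 in most of these mice. The 5xFAD effect was called as a rise for 9 of the 13 in ABX and 0 in GF mice, beside 9.45% and 9.43% of all genes. Without mouse FAD_GF_201, and with library size as the only scaling, 1 marker had a called difference, higher in ABX. The granule genes S100a8, S100a9, Ngp, Camp, Lcn2 and Ltf summed to 148 CPM in mouse FAD_ABX_1151 and to at most 0.289 CPM in each of the other 19 mice, while the 3 FAD_SPF mice had 65.1 to 279 CPM. A difference in these granule genes between both arms thus rested on 1 mouse, FAD_ABX_1151. Of the 13 tested markers, Csf3r had the smallest unadjusted p, with a difference of 0.36 ± 0.11 (adjusted p = 0.0933).

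The genes for the classical MHC class II molecules formed the next group. H2-Eb1, H2-Aa and H2-Ab1 encode chains of the molecules that display peptides, and Cd74 encodes the invariant chain that guards them until loading. These 4 of the 10 tested genes of class II presentation had a higher 5xFAD effect in ABX mice, and 0 had a lower one, beside 0.915% and 0.843% of all genes. The median of the list was 1.05, beside 0.01 over all genes. When single mice were left out, the count of higher genes was 2 to 4, with 2 without mouse WT_GF_229, and it was 2 with only the 20 mice in the fit.

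RefSeq promoters (GRCm38.p6, 250 bases before to 50 after the start) were found for 2 of the 3 class II chain genes and are shown because class II genes share a known promoter module, in which an X box and a Y box are bound together. Capitals mark the 2 motifs searched on both strands, GCAAC as the core of the X box and CTGATTGG as the Y box. H2-Eb1 lies at chr17:34305617-34305916 on the + strand and H2-Aa at chr17:34287774-34288073 on the - strand, and each sequence reads 5′ to 3′ along its gene.
H2-Eb1: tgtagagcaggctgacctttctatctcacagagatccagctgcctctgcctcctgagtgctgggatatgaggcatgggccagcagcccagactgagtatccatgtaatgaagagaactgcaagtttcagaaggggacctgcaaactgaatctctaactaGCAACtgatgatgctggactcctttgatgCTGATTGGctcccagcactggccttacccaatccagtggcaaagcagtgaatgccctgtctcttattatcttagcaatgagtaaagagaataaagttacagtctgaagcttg
H2-Aa: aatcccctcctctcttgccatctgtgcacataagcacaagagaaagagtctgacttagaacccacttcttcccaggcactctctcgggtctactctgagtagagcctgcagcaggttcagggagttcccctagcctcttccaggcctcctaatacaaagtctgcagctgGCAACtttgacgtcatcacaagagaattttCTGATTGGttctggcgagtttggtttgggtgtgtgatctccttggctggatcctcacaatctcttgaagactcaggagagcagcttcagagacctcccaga
Both motifs lie on the gene's own strand, with GCAAC 91 and CTGATTGG 62 bases before the start of H2-Eb1 and 81 and 51 bases before the start of H2-Aa. Of 32851 promoters of the same length, 35.2% held GCAAC, 4.1% CTGATTGG and 1.58% both, on either strand. H2-Ab1 had no entry.

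H2-Eb1 was 2.06, 2.51, 0.238, 1.41 and 2.11 CPM in WT_ABX mice and 13.2 to 224 CPM in FAD_ABX mice, with a median of 132. In the GF arm WT mice had 3.09, 62.1, 53.8 and 7.99 CPM and 5xFAD mice 77.2, 91.7, 51.7, 22.6 and 14.6 CPM. WT_GF mice were split into a low and a high pair, and the GF groups overlapped. The difference of the effects of H2-Eb1 was 5.53 ± 0.97 (adjusted p = 0.00685). H2-Aa was 0.661 to 3.26 CPM in WT_ABX, 14.8 to 239 CPM in FAD_ABX, 3.63 to 71.4 CPM in WT_GF and 20 to 113 CPM in FAD_GF mice, with a difference of 5.34 ± 0.99 (adjusted p = 0.00691).

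H2-Ab1 was 6.66 to 14.3 CPM in WT_ABX and 38.6 to 414 CPM in FAD_ABX mice, and 12.8 to 128 CPM in WT_GF and 53.4 to 263 CPM in FAD_GF mice, a difference of 3.33 ± 0.72 (adjusted p = 0.0175). Cd74 was 13.7 to 41.2 CPM in WT_ABX, 132 to 1028 CPM in FAD_ABX, 29.2 to 284 CPM in WT_GF and 181.9 to 627 CPM in FAD_GF mice. It rose in both arms, by 4.58 in ABX (adjusted p = 4.12e-07) and 1.61 in GF mice (adjusted p = 0.0328), and the difference was 2.97 ± 0.69 (adjusted p = 0.027). As for the macrophage markers, mouse FAD_ABX_1151 had the lowest level of all 4 genes among FAD_ABX mice. H2-DMa, a subunit of the peptide-exchange factor, rose by 0.61 in ABX (adjusted p = 0.000327) and 0.66 in GF mice (adjusted p = 0.000373), with a difference of -0.05 (95% interval -0.38 to 0.28). Ciita, the master regulator of class II genes, had a difference of 1.81 ± 1.06 that did not pass the test (adjusted p = 0.413).

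4 further genes, C4b, Pltp, Colec12 and Tlr8, had a higher effect in ABX mice. Their lists (complement, liver X receptor targets, Fc and scavenger receptors, and Toll-like receptors with NF-kappaB) held 15, 14, 17 and 39 tested genes. In these lists 1, 1, 3 and 1 genes were called higher, beside 0.915% of all genes. Complement component C4b was 0.529 to 2.56 CPM in WT_ABX, 9.48 to 31.6 CPM in FAD_ABX, 2.19 to 10.2 CPM in WT_GF and 3.37 to 19.5 CPM in FAD_GF mice, a difference of 2.95 ± 0.60 (adjusted p = 0.0141), and it was the 1 complement gene of 15 tested with a call. The phospholipid transfer protein Pltp, the 1 called gene among 14 targets of the liver X receptor, was 0.132 to 1.78 CPM in WT_ABX and 1.86 to 13.3 CPM in FAD_ABX mice, with a difference of 3.17 ± 0.73 (adjusted p = 0.0256). The scavenger receptor Colec12 and the RNA sensor Tlr8 had no count in WT_ABX mice, and their FAD_ABX levels were at least 193-fold and at least 81.4-fold higher by the floor of 3 counts. For all 4 genes the WT_ABX mean was the lowest of the 4 groups, as for the macrophage markers. With only the 20 mice in the fit Pltp and Tlr8 lost their calls (adjusted p = 0.0554 and 0.0736), and Tlr8 also did in 11 of 20 fits lacking 1 mouse.

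Genes called higher in ABX also included Acsl3, Eml6, Ephb3, Gm12258, Herc3, Relt, Tmco4 and Xrcc5, which belong to none of the lists. Of these, Gm12258 alone kept its call with only the 20 mice in the fit (adjusted p = 0.0246). The genes with the most negative differences were mostly of other kinds than macrophage and class II genes. Some immune genes, given further below, were also lower in ABX. Among the 15 most negative called differences of genes averaging 3 log2 CPM or more were 4 genes of ribosomal RNA sequence or mitochondrial ribosomal RNA, namely mt-Rnr1, mt-Rnr2, Rn18s-rs5 and Gm15564, and Lars2, a mitochondrial leucyl-tRNA synthetase. The others were the ribosomal protein genes Rpl39, Rps21 and Rps24, the respiratory chain genes Ndufa1, Cox6a2, mt-Nd2 and mt-Nd4, the nucleosome-binding gene Hmgn3, the adenosine receptor Adora1 and Scai.

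Subunits of the respiratory chain rose in 5xFAD mice in the GF arm and mostly did not pass the test in the ABX arm. Of 36 tested nuclear subunits of complex I, 27 rose in GF and 3 in ABX mice, beside 9.43% and 9.45% of all genes, and 0 fell. The effects differed for 4 of the 36, Ndufa1, Ndufb2, Ndufa6 and Ndufs4, each lower in ABX, beside 0.843% of all genes. The median difference was -0.55 and 35 of the 36 genes were below 0, beside a median of 0.01 and 49.1% below 0 over all genes. Of 39 subunits of complexes II to V, 29 rose in GF and 5 in ABX mice, and the effects of 5 differed, all lower in ABX, with a median of -0.52. With only the 20 mice in the fit the calls were 2 and 2, and with library size as the only scaling they were 3 and 2. Without 1 mouse, the calls in complex I were 2 (WT_ABX_910 or WT_ABX_911, FAD_GF_184 or FAD_GF_185, WT_GF_199 or WT_GF_231), 6 (WT_ABX_923 or WT_GF_230), 7 (WT_ABX_932), 9 (FAD_ABX_1455), 10 (FAD_ABX_1482) or 12 (FAD_GF_201), and 3 without any other. In complexes II to V they were 9 without WT_ABX_932 or FAD_ABX_1482, 12 without FAD_ABX_1455 or FAD_GF_201, 4 without WT_ABX_923, 6 without WT_GF_230, and 2 or 3 without any other mouse.

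Ndufa1, an accessory subunit of complex I encoded on the X chromosome (37187588 to 37191163), was 32.7, 31.3, 34.5, 24.7 and 24 CPM in WT_ABX mice and 38 to 66.9 CPM in FAD_ABX mice with a median of 43.2. It was 16.7, 20.4, 23.9 and 20.7 CPM in WT_GF mice and 104, 83.2, 78.9, 108 and 48.4 CPM in FAD_GF mice, where the lowest value was that of mouse FAD_GF_201. Ndufa1 thus rose in both arms without overlap of the groups, by 0.68 in ABX (adjusted p = 0.00651) and 2.05 in GF mice (adjusted p = 7.87e-09), and the difference was -1.37 ± 0.25 (adjusted p = 0.00691). Cox7b, a subunit of cytochrome c oxidase, was 30.1 to 44.7 CPM in WT_ABX, 23.5 to 44.9 CPM in FAD_ABX, 22.4 to 32.5 CPM in WT_GF and 44.4 to 64.1 CPM in FAD_GF mice, so that it separated the genotypes in the GF arm alone, with a difference of -1.12 ± 0.22 (adjusted p = 0.0109). The ATP synthase subunit Atp5j differed by -0.83 ± 0.17 (adjusted p = 0.0152).

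Genes encoded by the mitochondrial genome followed the same direction. Of 13 such genes 7 were tested, all 7 rose in GF mice and 0 changed in ABX mice, and the effects of 5 differed (mt-Nd1, mt-Nd2, mt-Nd4, mt-Nd6 and mt-Cytb), all lower in ABX. Of all genes 9.43% rose in GF mice, 14.4% changed in ABX mice and 0.843% had a lower effect in ABX. Their median difference was -1.04. mt-Nd2 was 128, 129, 177, 118 and 96.7 CPM in WT_ABX, 39.7 to 132 CPM in FAD_ABX, 53.5, 42.3, 71.1 and 46 CPM in WT_GF and 107, 97.3, 101, 137 and 70.9 CPM in FAD_GF mice (difference -1.47 ± 0.32, adjusted p = 0.0206). WT_GF mice were the low group here, and the median of ABX minus GF over the 7 genes was 0.94 in WT and -0.18 in 5xFAD mice. The count of called genes was 0 without mouse WT_ABX_911 or mouse WT_GF_229, 5 or 6 without WT_ABX_932, WT_GF_230, FAD_GF_201 or FAD_ABX_1151, FAD_ABX_1455, FAD_ABX_1460 or FAD_ABX_1482, and 1 to 3 without any other mouse. It was 0 with only the 20 mice in the fit, 1 with library size as the only scaling and 2 with an offset for GC content.

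The ribosomal RNA sequences moved with these genes, and their share depends on library preparation. mt-Rnr2 was 324 to 922 CPM in WT_ABX, 184.1 to 587 CPM in FAD_ABX, 188 to 218 CPM in WT_GF and 304 to 667 CPM in FAD_GF mice, with a difference of -1.996 ± 0.36 (adjusted p = 0.00685). Rn18s-rs5, which carries 18S ribosomal RNA sequence, was 298 to 584 CPM in WT_ABX, 56.9 to 349 CPM in FAD_ABX, 130 to 154 CPM in WT_GF and 159 to 297 CPM in FAD_GF mice, a difference of -1.68 ± 0.42 (adjusted p = 0.0374). Its call was lost in 10 of 20 fits lacking 1 mouse and with only the 20 mice in the fit (adjusted p = 0.055). For both, WT_GF mice lay below FAD_GF mice without overlap, while the ABX groups overlapped. Whether RNA quality, or anything that goes with the form of description, plays a part in the lower mitochondrial and ribosomal values was not tested.

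Cytosolic ribosomal proteins, the protein parts of the translating ribosome, gave 6 called genes of 84 tested, all lower in ABX (among them Rpl39, Rps24, Rpl23, Rpl37a and Rps21) and beside 0.843% of all genes, with a median of -0.52 and 78 genes below 0. In GF mice 50 of the 84 rose and 0 fell, and in ABX mice 21 rose and 1 fell, where 9.43% and 9.45% of all genes rose. Rpl39 was 8.58 to 20.5 CPM in WT_ABX, 6.21 to 19.9 CPM in FAD_ABX, 5.01 to 9.12 CPM in WT_GF and 15.9 to 26 CPM in FAD_GF mice, with a difference of -1.58 ± 0.37 (adjusted p = 0.027). Its genotypes were separate in GF and overlapped in ABX mice. The 6 calls became 14 without mouse FAD_GF_201, 12 without mouse FAD_ABX_1482, 6 to 8 without mouse WT_ABX_923 or WT_ABX_932 or mouse FAD_ABX_1455, 4 without mouse WT_GF_230, 1 to 3 without any of the other mice, 0 without mouse WT_ABX_911, mouse FAD_GF_185 or any of the mice WT_GF_199, WT_GF_229 and WT_GF_231, and 0 with only the 20 mice in the fit. They were 2 with library size as the only scaling and 3 with an offset for GC content. Ribosomal protein genes have many near-identical pseudogenes, so their counts are uncertain. Mitochondrial ribosomal proteins had 0 calls among 77 tested genes and a median of -0.22.

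**Figure D3:**
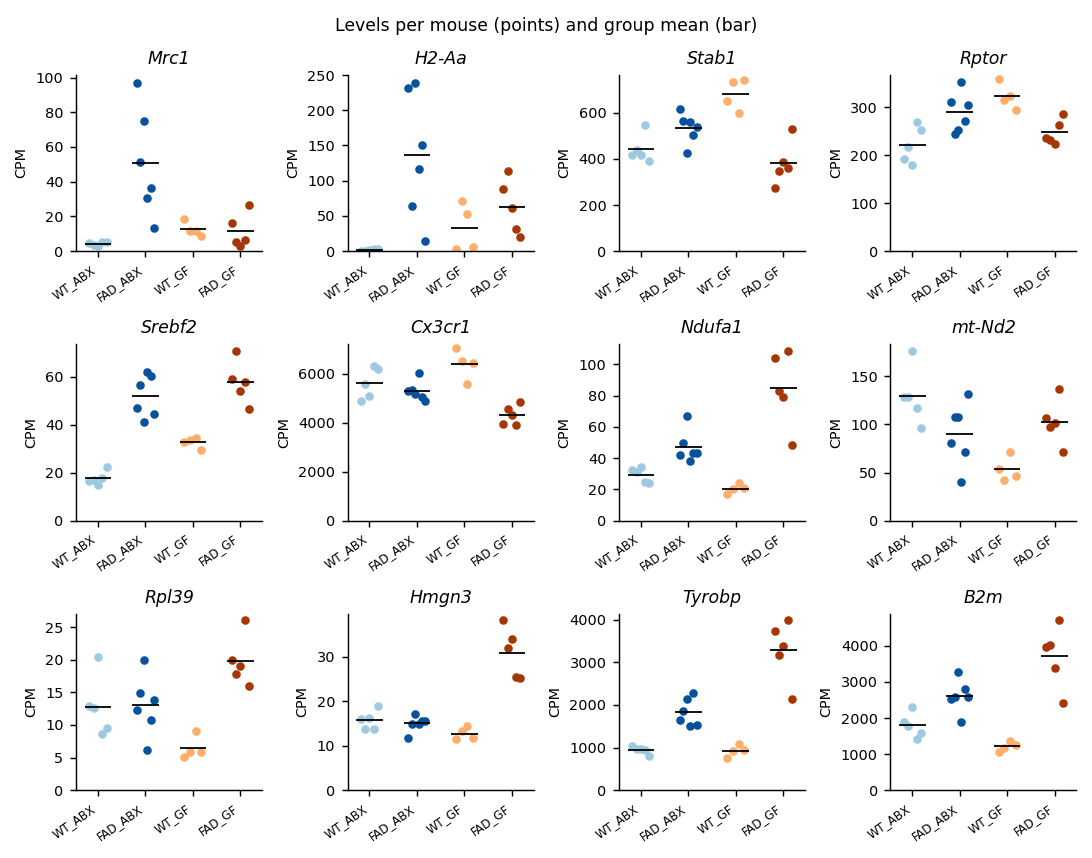
CPM of 12 genes in each of the 20 mice (points) with the group mean (bar), on axes that start at 0. Mrc1, H2-Aa, Stab1, Rptor, Srebf2 and Cx3cr1 had a higher 5xFAD effect in ABX mice, and Ndufa1, mt-Nd2, Rpl39, Hmgn3, Tyrobp and B2m a lower one. Hmgn3 lies between 25.1 and 38.3 CPM in FAD_GF mice and between 11.4 and 19 CPM in the other 3 groups.

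Hmgn3, a gene of none of these families, was 13.6 to 19 CPM in WT_ABX, 11.7 to 17.2 CPM in FAD_ABX, 11.4 to 14.4 CPM in WT_GF and 25.1 to 38.3 CPM in FAD_GF mice. FAD_GF mice alone were raised, without overlap with any other group, and the difference was -1.35 ± 0.22 (adjusted p = 0.00685). Adora1 and the cytochrome c oxidase subunit Cox6a2 rose steeply in both arms but more in GF mice. Adora1 rose by 2.26 in ABX (adjusted p = 1.99e-07) and by 4.05 in GF mice (adjusted p = 7.57e-11), and Cox6a2 by 2.97 (adjusted p = 4.63e-10) and 4.29 (adjusted p = 4.68e-12). The differing effect of Cox6a2 lost its call in 15 of 20 fits lacking 1 mouse and with only the 20 mice (adjusted p = 0.0838), and that of Adora1 kept it in all of these fits. Hsd17b11 had another order of groups. This gene, among those with the smallest p and picked after its values were seen, fell in ABX mice by 0.92 (adjusted p = 2.02e-05) and had a 5xFAD effect of 0.29 in GF mice (adjusted p = 0.224). WT_ABX mice were above the other 3 groups without overlap.

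Amyloid-responsive microglia genes responded in both arms. Of 30 such genes, all tested, 29 rose in ABX and 29 rose in GF mice, beside 9.45% and 9.43% of all genes, with median effects of 2.51 and 2.67, and only Lgmn had no call in either. The effects differed for 4 of the 30, Tyrobp, B2m, Ccl6 and Fth1, each with the smaller rise in ABX mice, beside 0.843% of all genes. The median difference was -0.28, and 20 of the 30 were below 0. The list was chosen with results of these mice known and is not independent evidence of its direction. The count was 6 without mouse FAD_GF_201 and 2 without any 1 mouse other than FAD_GF_201, FAD_GF_184, FAD_ABX_1455 or FAD_ABX_1482, WT_ABX_923 or WT_ABX_932 and WT_GF_230. With only the 20 mice in the fit it was 1, B2m.

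Tyrobp, the signalling adaptor of Trem2, was 808 to 1041 CPM in WT_ABX, 1505 to 2287 CPM in FAD_ABX, 746 to 1084 CPM in WT_GF and 2133 to 3978 CPM in FAD_GF mice. It rose by 0.95 in ABX and 1.83 in GF mice, and the difference was -0.88 ± 0.19 (adjusted p = 0.0157). B2m, the light chain of MHC class I, was 1424 to 2295 CPM in WT_ABX, 1886 to 3272 CPM in FAD_ABX, 1054 to 1370 CPM in WT_GF and 2427 to 4713 CPM in FAD_GF mice, with a difference of -1.07 ± 0.20 (adjusted p = 0.00762). B2m overlapped between genotypes in ABX mice alone. The chemokine Ccl6 differed by -0.88 ± 0.23 (adjusted p = 0.0452), the ferritin heavy chain Fth1 by -0.73 ± 0.19 (adjusted p = 0.0485), and Fcer1g, the shared gamma chain of Fc receptors, by -0.63 ± 0.17 (adjusted p = 0.048). Beside Fcer1g, the Fc and scavenger receptor list of 17 tested genes had 3 calls, all higher in ABX (Cd163, Stab1 and Colec12), beside 0.915% of all genes. Fcer1g rose in GF mice by 0.75 (adjusted p = 6.76e-05) and had an effect of 0.12 in ABX mice (adjusted p = 0.527). The calls of Ccl6, Fth1 and Fcer1g were lost in 13, 16 and 14 of 20 fits lacking 1 mouse.

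For the best-known members no difference was detected, and the intervals show how large one could be. Apoe, the lipid carrier of the response, was 293 to 451 CPM in WT_ABX, 2922 to 6434 CPM in FAD_ABX, 405 to 955 CPM in WT_GF and 5321 to 10154 CPM in FAD_GF mice, a difference of 0.14 with a 95% interval from -0.46 to 0.74. Trem2, the receptor for plaque lipids, differed by -0.26 (-0.53 to 0.00), Axl by 0.39 (-0.30 to 1.08), Lpl by -0.10 (-0.71 to 0.51), Csf1 by 0.09 (-0.36 to 0.54), C1qb by -0.11 (-0.39 to 0.17) and Spp1 by 1.05 (-0.17 to 2.26). Cst7, a cathepsin inhibitor, was 532 to 777 CPM in FAD_ABX and 774 to 1652 CPM in FAD_GF mice, against 5.96 to 10.2 CPM in WT_ABX and 5.65 to 17 CPM in WT_GF mice. Its difference of -0.74 (-1.34 to -0.14) did not pass after adjustment (adjusted p = 0.221). The same held for Clec7a at -0.73 (-1.23 to -0.23, adjusted p = 0.139), Itgax at -0.74 (-1.44 to -0.03, adjusted p = 0.31), Cd9 at -0.41 (-0.68 to -0.15, adjusted p = 0.111) and Ctsb at -0.40 (-0.71 to -0.09, adjusted p = 0.192). Mouse FAD_GF_201 had the lowest Apoe, Cst7 and Clec7a level of the FAD_GF mice, and without it 6 of the 30 genes were called, all lower in ABX.

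**Figure D4:**
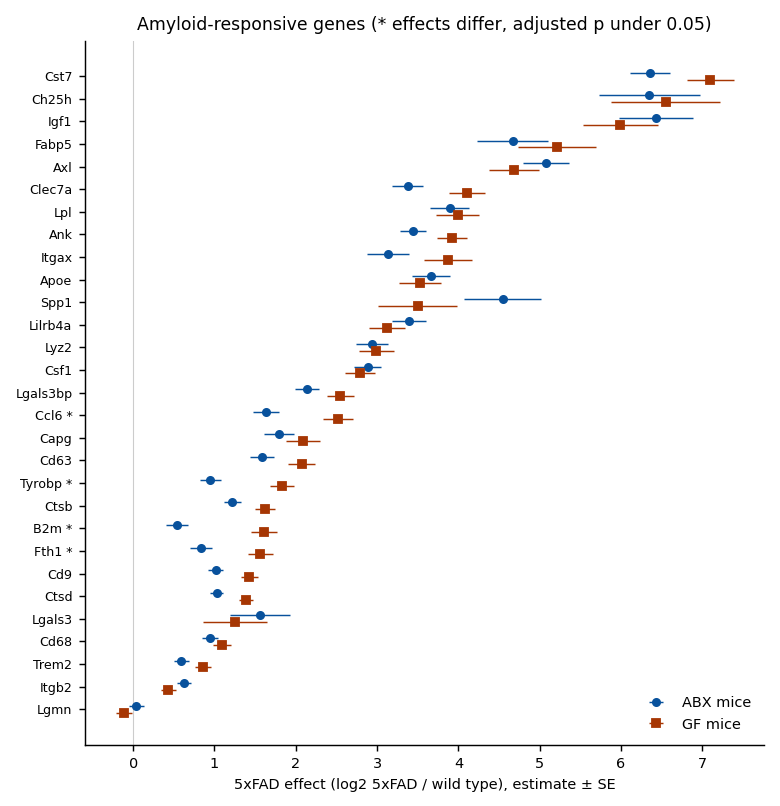
5xFAD effect (log2, estimate with standard error) of 29 amyloid-responsive genes in ABX mice (circles) and GF mice (squares). Gpnmb is left out because all WT_ABX libraries were at 0, and asterisks mark the 4 genes whose effects differed, all of them with the circle to the left of the square. Cst7 has the largest effect in GF mice, 7.10, against 6.36 in ABX mice, and Lgmn lies near 0 in both.

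Homeostatic genes of microglia, which define the resting state, differed in part. Of 22 tested, 9 fell in ABX and 11 in GF mice, beside 4.98% and 6.2% of all genes. The effects of Cx3cr1 and Adgrg1 were higher and that of Fcrls lower in ABX, beside 0.915% and 0.843% of all genes. Cx3cr1, the fractalkine receptor, was 4891 to 6026 CPM in FAD_ABX and 4904 to 6327 CPM in WT_ABX mice, which overlapped, and 3898 to 4842 CPM in FAD_GF and 5589 to 7060 CPM in WT_GF mice, which did not (difference 0.49 ± 0.13, adjusted p = 0.0452). Adgrg1, an adhesion receptor, had effects of -0.07 in ABX (adjusted p = 0.704) and -0.65 in GF mice (adjusted p = 5.1e-05). Fcrls fell in ABX by 0.35 (adjusted p = 0.000603) and had an effect of 0.06 in GF mice (adjusted p = 0.698). P2ry12, the ADP receptor that drives process movement, fell by 0.59 in ABX and 0.62 in GF mice, with a difference of 0.02 (95% interval -0.26 to 0.31). The number of homeostatic genes called higher was 0 without mouse WT_ABX_909, WT_ABX_910 or WT_ABX_911, mouse FAD_GF_181, FAD_GF_184 or FAD_GF_185, mouse FAD_ABX_1452 or FAD_ABX_1460 or mouse WT_GF_229 or WT_GF_231, 1 without mouse FAD_GF_182, mouse FAD_ABX_1453 or mouse WT_GF_199, and 4 without mouse WT_ABX_932. The call of Fcrls was lost in 12 of 20 fits lacking 1 mouse. With only the 20 mice in the fit 0 of the 3 calls were made, at adjusted p of 0.0518 for Cx3cr1, 0.0516 for Adgrg1 and 0.0972 for Fcrls.

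Rptor, the substrate-binding subunit of the growth regulator mTORC1, was 180 to 268 CPM in WT_ABX, 244 to 353 CPM in FAD_ABX, 295 to 359 CPM in WT_GF and 223 to 286 CPM in FAD_GF mice. It rose in ABX by 0.38 (adjusted p = 0.0159) and fell in GF mice by 0.38 (adjusted p = 0.0269), with a difference of 0.77 ± 0.16 (adjusted p = 0.0157). Flcn, folliculin, which links lysosomal amino acid levels to mTORC1, rose in ABX by 0.36 (adjusted p = 0.00186) and was -0.22 in GF mice (adjusted p = 0.0797). These were the 2 called genes of 35 in the core mTOR pathway, beside 0.915% of all genes called higher, and the median difference of that list was 0.08. Srebf2, a regulator of cholesterol synthesis and the 1 called gene of 20 in that list, rose in both arms, by 1.55 in ABX (adjusted p = 1.08e-09) and 0.82 in GF mice (adjusted p = 0.000119), from 14.9 to 22.3 CPM in WT_ABX and from 29.4 to 34.6 CPM in WT_GF mice. Its call was lost in 16 of 20 fits lacking 1 mouse and with only the 20 mice in the fit (adjusted p = 0.0821), whereas Rptor and Flcn kept theirs.

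Rptor is 1 of 12 genes whose 5xFAD effect passed the test in both arms with opposite signs, a group that was formed after the values were seen. 10 of them rose in ABX and fell in GF mice, and 8 of the 12 had an average of at least 3 log2 CPM. Inpp5d, the inositol phosphatase SHIP1 that restrains receptor signalling in myeloid cells, was 959 to 1164 CPM in WT_ABX, 1074 to 1546 CPM in FAD_ABX, 1287 to 1589 CPM in WT_GF and 1019 to 1224 CPM in FAD_GF mice. Its effects were 0.25 in ABX (adjusted p = 0.0368) and -0.30 in GF mice (adjusted p = 0.0252). Arhgef10l and Arhgef2, which are guanine nucleotide exchange factors, had differences of 1.07 ± 0.20 (adjusted p = 0.00685) and 0.52 ± 0.11 (adjusted p = 0.0148). The differences were 0.86 for the sodium-proton exchanger Slc9a8, 0.90 for the mRNA decapping scaffold Edc4 and 0.81 for Gucd1. In all of these except Gucd1 the WT_ABX mean was the lowest and the WT_GF mean the highest of the 4 groups. Lars2 alone of the 8 went the other way, falling by 0.68 in ABX (adjusted p = 0.00858) and rising by 0.60 in GF mice (adjusted p = 0.0375).

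Lists of lysosomal hydrolases and membrane proteins, autophagy, proteasome, antioxidant and actin genes had 1 or 2 calls each, beside 1.76% of all genes. Scarb2, a lysosomal membrane receptor and 1 of 34 genes of its list, rose in GF by 0.54 (adjusted p = 9.39e-05) and had an effect of 0.05 in ABX mice (adjusted p = 0.731). Gabarap, a ubiquitin-like protein of autophagosomes and 1 of 32 autophagy genes, differed by -0.66 ± 0.17 (adjusted p = 0.0398). The proteasome subunit Psmb7 (1 of 38) and the peroxidase Prdx1 (1 of 23 antioxidant genes) were lower in ABX as well, at -0.60 ± 0.16 and -0.64 ± 0.17 (adjusted p = 0.0492 and 0.0499). Among 40 actin genes Msn, moesin, was higher in ABX (0.41 ± 0.10, adjusted p = 0.0263) and Arpc5l, a subunit of the Arp2/3 complex, lower (-0.44 ± 0.12, adjusted p = 0.0488). Most of these calls were lost when 1 mouse was left out, in 16 of 20 such fits for Psmb7, 15 for Arpc5l, 14 for Prdx1, 13 for Gabarap, 11 for Scarb2 and 2 for Msn. With only the 20 mice in the fit 0 of the 6 were called, at adjusted p between 0.0507 and 0.101.

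Other gene families gave 0 calls. These included 41 tested interferon-stimulated genes, whose median 5xFAD effect was 1.29 in ABX and 1.16 in GF mice, and 33 genes of the cell cycle, at 1.34 and 0.76. Of the interferon-stimulated genes 22 rose in ABX and 16 in GF mice, and of the cell cycle genes 19 and 13, beside 9.45% and 9.43% of all genes. Cathepsins and legumain (13 genes), V-ATPase subunits (20), glycolytic enzymes (20), translation factors (44), splicing factors (57), endoplasmic reticulum chaperones (25), heat shock proteins (14), the TGF-beta pathway (22), NADPH oxidase genes (7), immediate early genes (21), glucocorticoid targets (13), clock genes (18), chromatin modifiers (42) and nuclear long non-coding RNAs (5) had none either, and their medians lay between -0.31 and 0.09. Markers of neurons, astrocytes, oligodendrocytes, endothelial cells, B cells and T cells had 0 calls among 8, 7, 7, 4, 2 and 2 tested genes, and no erythrocyte marker was tested. At an unadjusted p under 0.05 the comparison had 2436 genes in all.

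**Figure D5:**
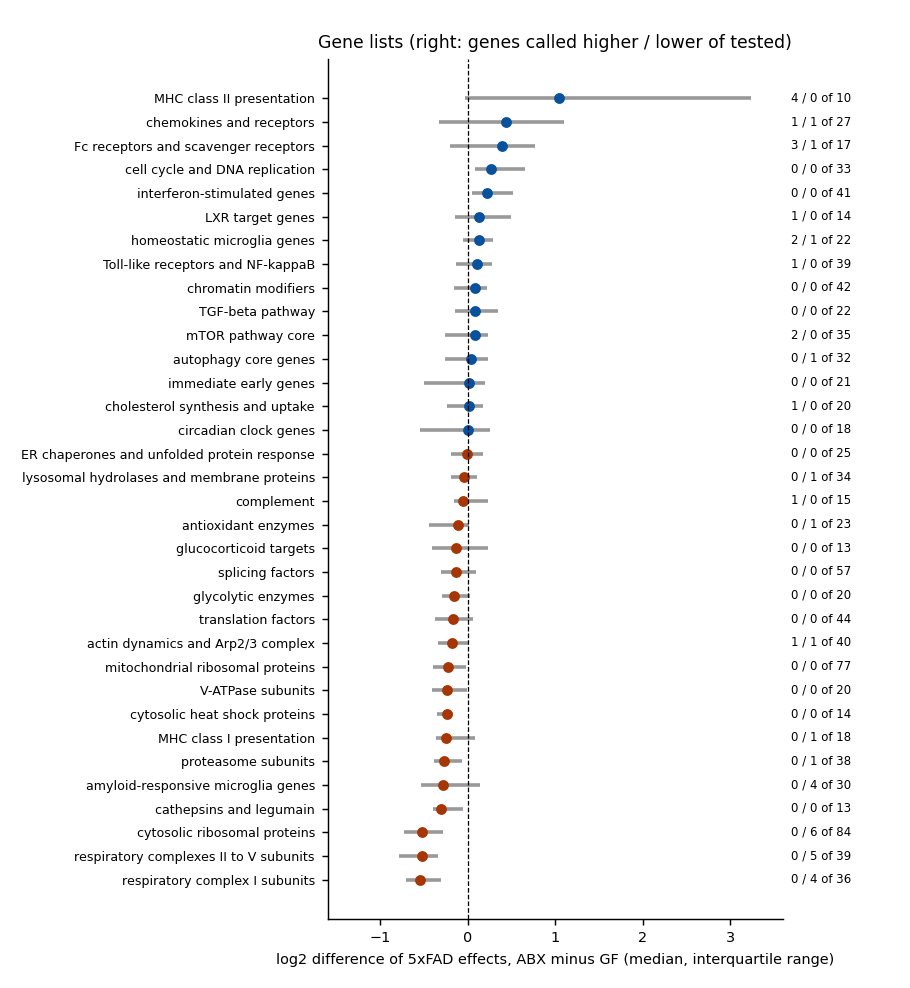
Median (point) and interquartile range (bar) of the log2 difference of 5xFAD effects, ABX minus GF, in 34 gene lists with at least 10 tested genes, with the numbers of genes called higher and lower at the right and the median of all genes as a dashed line. Lists of border-associated macrophage and neutrophil markers are left out because groups without counts set their values. MHC class II presentation lies farthest to the right (1.05), and respiratory chain and cytosolic ribosomal genes lie farthest to the left (-0.52 to -0.55).

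The difference of effects also varied with gene length and GC content. With the genes split by exon length into 5 equal bins, in the bin of the shortest genes (48 to 1752 bases of exon) its median was -0.18, with 8 genes called higher and 54 lower, and in that of the longest (6391 bases and more) it was 0.10, with 45 higher and 8 lower. The median 5xFAD effect from the shortest to the longest bin ran from 0.11 to -0.11 in GF mice and was -0.04 in both of these bins in ABX mice. Ribosomal and respiratory chain genes are short. With an offset for gene length, the median difference was -0.39 for complex I, -0.42 for complexes II to V, -0.40 for cytosolic ribosomal proteins and -0.87 for mitochondrially encoded genes, and 2, 2, 2 and 1 of them were called. The MHC class II and macrophage lists had the same 4 and 10 calls in number with this offset. In 5 bins of GC content the median difference ran from -0.12 in the lowest bin, with 11 genes called higher and 41 lower, to 0.14 in the highest, with 54 higher and 12 lower. With an offset for GC content complex I had 4 calls, complexes II to V 6, MHC class II 4 and the macrophage list 10.

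Without the mice FAD_ABX_1151 and FAD_ABX_1482, a pair chosen from earlier results of these data, 358 genes were called, the macrophage list again had 10 calls and a median of 7.48, and complex I had 6 calls and a median of -0.54. On the first 2 principal components of all tested genes (22.5% and 8.01% of variance), mouse FAD_ABX_1151 lay at 8.17 and 44.62. FAD_SPF mice lay at 16.33 to 25.74 and 35.15 to 37.44. The other FAD_ABX mice lay at 30.65 to 46.92 and -85.5 to 20.07. Whether mouse FAD_ABX_1151 stands for the other FAD_ABX mice was not tested. With mouse FAD_ABX_1151 as the only FAD_ABX mouse, all ABX mice share 1 form of description, and the lone mouse is then assumed to vary like the other groups. In that fit 2 genes were called, Pla2g4b and RP24-163M14.3, which were picked with their values in view. The median of the macrophage list was 4.37, that of MHC class II -0.24, that of complex I -0.92, that of complexes II to V -0.83, that of cytosolic ribosomal proteins -0.78 and that of mitochondrially encoded genes -0.61, and 0 genes of these lists were called. Beside the medians in all mice, those of nuclear respiratory and cytosolic ribosomal genes were further from 0, those of mitochondrially encoded genes and macrophage markers were closer to 0, and that of MHC class II changed its sign.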

How the data were processed

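RNA of sorted hippocampal microglia was sequenced from 28 mice. The authors aligned reads with STAR 2.7.2 to GRCm38 (GENCODE M21), and deposited unnormalized counts for each gene from featureCounts 1.6.2, with summed exon lengths. From these counts, 92 spike-in rows (at most 12 counts a library) were dropped. In R 4.3.3, edgeR 4.0.16 kept genes by filterByExpr (minimum count 10, total 15), scaled by TMM and fitted 28 mice in 6 groups by quasi-likelihood. CPM refer to TMM-scaled library sizes. Intervals are the estimate ± 1.96 SE. Mice are separate animals by the labels, and counts of replicates differed by more than sampling noise (chi-square per degree of freedom at least 6.92). Floors and counting intervals cover counting error only. The members, gene lists and tests were chosen with earlier results of these data known. Genes named are the 15 highest and 15 lowest called differences averaging 3 log2 CPM or more, up to 4 called genes per list or the one with the smallest p, genes the study names, and the markers, of which some are not reported here. edgeR and DESeq2 were tested on simulated data. Alternatives were RLE or library-size scaling, no filter, 10 counts in every library, length or GC offsets, DESeq2 1.42.0, limma 3.58.1 with voomWithQualityWeights or voom, other thresholds, fewer mice, and each mouse left out. Figures used matplotlib 3.10.9.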

Additional observations from a re-analysis of the deposited data

Results flagged for a closer look

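The 5xFAD effect differed between ABX and GF mice by the test of the difference itself for 269 genes, 140 with the higher and 129 with the lower effect in ABX mice. Of the genes averaging 3 log2 CPM or more with called effects of opposite sign in both arms, the differences were 0.55 for Inpp5d, 0.86 for Slc9a8, 0.52 for Arhgef2, 1.07 for Arhgef10l, 0.90 for Edc4, 0.81 for Gucd1, 0.77 for Rptor and -1.28 for Lars2.

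Single mice lay far from the rest of their group in 35 of 432 gene and group pairs by Dixon's test (8.1%), where chance alone gives about 1 in 20 groups. Mouse FAD_GF_201, whose description reads WT, accounted for 12 of them. It was lowest in its group for mt-Rnr2 (304 CPM), Cox6a2 (21.4 CPM), Sf3b6 (37.1 CPM), Psmb7 (37.6 CPM), Apoe (5321 CPM), Trem2 (2406 CPM), Cst7 (774 CPM), Csf3r (557 CPM) and Cd9 (2271 CPM), and highest for Tlr8 (0.986 CPM), Tmem119 (4421 CPM) and Sall1 (574 CPM). Mouse FAD_ABX_1151 was lowest in its group, with 1.35 CPM of Cbr2, 0.451 CPM of Mgl2, 1.86 CPM of Pltp and 2947 CPM of Lgmn.

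Mouse FAD_ABX_1460 had 50.2 CPM of mt-Nd4, 7.6 CPM of Rps24, 35.2 CPM of mt-Nd6 and 10359 CPM of Ctsb, and mouse FAD_ABX_1455 had 517 CPM of Sall1. WT_GF_199 had 137 CPM of Eef1a1, 7.61 CPM of Hspe1, 7282 CPM of C1qb and 426 CPM of Aif1, while WT_GF_230 had 3800 CPM of Fcrls, 0.429 CPM of Mog and 4029 CPM of Ctsb, and WT_GF_231 had 1444 CPM of Adgrg1. WT_ABX_911 had 0.238 CPM of H2-Eb1 and 69.4 CPM of Cox7a2, WT_ABX_932 had 0.264 CPM of F13a1 and 29.5 CPM of Uqcr10, and WT_ABX_923 had 2.28 CPM of Acsl3. Mouse FAD_GF_181 had 125 CPM of Smarca4.

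In FAD_SPF mice, outside the comparison, the neutrophil granule gene S100a8 had a median of 34.3 CPM.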

How the results depend on the processing

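All 65 called genes among the 108 named kept their direction under every alternative that gave them a value, and 15 of them also stayed past the threshold under all of these other than mouse FAD_ABX_1151 as the only FAD_ABX mouse. With at least 10 counts required in every library 11 of the 65 had no value, among them Cd163, F13a1, H2-Aa and H2-Eb1. DESeq2 called 576 genes (303 higher and 273 lower in ABX) and voom without sample weights 130 (71 and 59). Only the 20 mice gave 67 (42 and 25), mouse FAD_ABX_1151 as the only FAD_ABX mouse 2 (2 and 0, with 281 genes for the 5xFAD effect in ABX mice), an adjusted p under 0.01 gave 22 (13 and 9) and one under 0.1 gave 588 (309 and 279). The genes lower in ABX were 69 with library size as the only scaling and 68 without a filter on low counts. Leaving out 1 mouse gave 85 to 491 genes (52 to 246 higher, 33 to 245 lower), 1518 to 2716 with a 5xFAD effect in ABX and 1769 to 2746 in GF mice.

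Differences that reversed belonged to genes without a call. These were Mog with voomWithQualityWeights (0.0094), Apoe (-0.032) and Csf1 (-0.0015) with GC offsets, C1qb (0.093) with length offsets, and Ighm (-0.19), Apoe (-0.48), Csf1 (-0.25) and Lgmn (-0.36) with mouse FAD_ABX_1151 as the only FAD_ABX mouse. With 1 mouse left out, differences ran from -0.046 to 0.12 for P2ry12, -0.34 to 0.095 for Lpl and -0.039 to 0.25 for Csf1. The cause was not tested. No paired analysis was possible because no mouse number is shared between groups. Genes under about 1 CPM rest on few counts per library, and their differences are imprecise.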
